A study of Homo sapiens with 18 samples.

Results

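The GIMAP genes (GTPases of immunity-associated proteins) form a family of small GTP-binding proteins encoded side by side on chromosome 7, and 7 of them were listed in the count tables: *GIMAP1*, *GIMAP2*, *GIMAP4*, *GIMAP5*, *GIMAP6*, *GIMAP7* and *GIMAP8*. They are 7 of the 26941 genes kept from the tables. The family was selected on 1 measured value, the rise of *GIMAP8* in REH cells after *SOX11* silencing, so the family's values in the *SOX11* siRNA contrast in REH are given as a description, with no test, and only genes outside the family are tested in that contrast. The lists of such genes were chosen with earlier results of these data known. RNA was sequenced from 18 samples of 3 established B-cell precursor acute lymphoblastic leukemia (B-ALL) lines: REH, which carries the ETV6-RUNX1 fusion, 697 and RCH-ACV. In each line, 3 samples received siRNA against *SOX11* and 3 a non-specific control siRNA, both at 300 nM by nucleofection, and RNA was collected after 48 h. The sample titles call the siRNA samples KO, although the treatment was a transient knockdown and no gene was deleted. All lines express *SOX11*, a developmental transcription factor, and all cells, controls included, went through nucleofection. REH represents one leukemia subtype, and 697 and RCH-ACV share another, so a difference of REH from the other lines cannot be told apart from a difference between subtypes, whereas 697 and RCH-ACV differ within a subtype.

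GIMAP proteins share an AIG1-type GTP-binding domain that is related to that of the septins. They are known mainly from lymphocytes, where several members affect survival and the maintenance of resting T cells, and loss of *GIMAP5* in rodents and humans leads to a shortage of lymphocytes. Several members sit on internal membranes such as the endoplasmic reticulum, lysosomes or lipid droplets. In the bulk RNA of a cell line, fewer cells that express a gene and less RNA of it per cell cannot be told apart.

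The total count on the kept genes ranged from 7039594 to 16592492 per sample, with a median of 8759235. With 3 counts taken as the smallest number that shows a gene, the floor of a single sample lay between 0.181 and 0.426 CPM (counts scaled to a fixed library total). Levels are given as CPM on library sizes scaled by TMM, and levels of different genes are compared only as CPM per kb of exon. *SOX11* itself was lower with its siRNA in every line, with a log2 fold change of -0.91 for 697, -0.83 for REH and -0.67 for RCH-ACV. The cells carried B-cell markers as labelled: *PAX5*, a transcription factor of the B lineage, lay between 736 and 933 CPM over all samples. *VPREB1*, a surrogate light chain gene of precursor B cells, reached 170 CPM or more in 697 and RCH-ACV but had 1 count in each of the REH groups.

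The 7 genes lie within 299 kb of hg19, chr7:150147718-150447121, in the order *GIMAP8*, *GIMAP7*, *GIMAP4*, *GIMAP6*, *GIMAP2*, *GIMAP1* and *GIMAP5*. *GIMAP8*, the longest protein of the family and the one with several GTPase domains in a row, opens the cluster at chr7:150147718-150176481. *GIMAP7* follows at chr7:150211960-150218161 and *GIMAP4* at chr7:150264457-150271041. *GIMAP6*, at chr7:150322463-150329736, is the one member on the minus strand. *GIMAP2* spans chr7:150382785-150390729. *GIMAP1*, at chr7:150413694-150421372, overlaps *GIMAP5*, at chr7:150419341-150447121, and the read-through gene *GIMAP1-GIMAP5* runs over both, so the reads of these 3 entries could not be separated fully. The counted RefSeq transcripts were NM_175571 for *GIMAP8*, NM_153236 for *GIMAP7*, NM_018326 for *GIMAP4*, NM_001244072 for *GIMAP6*, NM_015660 for *GIMAP2*, NM_130759 for *GIMAP1* and NM_018384 for *GIMAP5*.

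The promoter windows of *GIMAP8*, *GIMAP4*, *GIMAP6* and *GIMAP2* are shown because *GIMAP8*, *GIMAP4* and *GIMAP6* were high in REH and at or near 0 in the other lines, while *GIMAP2* was present in all 3. Each window runs 5′ to 3′ along the gene, from 250 bases before to 50 bases after the annotated start, as given by RefSeq on GRCh38.p14. This build differs from the hg19 positions above. All 7 members had a window. The capitals mark matches, on either strand, to 6 short motifs: ACAAAG and ACAATG of SOX factors, TGTGGT of RUNX factors, GGAAGT of ETS factors, TGGGAA of Ikaros, and the TATA box TATAAA. None of these motifs contains another.
GIMAP8 (chr7:150450380-150450679, plus strand): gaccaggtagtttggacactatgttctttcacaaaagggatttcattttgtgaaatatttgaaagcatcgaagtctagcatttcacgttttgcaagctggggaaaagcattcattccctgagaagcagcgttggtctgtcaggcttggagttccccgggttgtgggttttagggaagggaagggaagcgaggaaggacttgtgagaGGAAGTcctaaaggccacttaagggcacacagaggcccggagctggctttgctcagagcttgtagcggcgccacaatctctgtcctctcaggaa
GIMAP4 (chr7:150567140-150567439, plus strand): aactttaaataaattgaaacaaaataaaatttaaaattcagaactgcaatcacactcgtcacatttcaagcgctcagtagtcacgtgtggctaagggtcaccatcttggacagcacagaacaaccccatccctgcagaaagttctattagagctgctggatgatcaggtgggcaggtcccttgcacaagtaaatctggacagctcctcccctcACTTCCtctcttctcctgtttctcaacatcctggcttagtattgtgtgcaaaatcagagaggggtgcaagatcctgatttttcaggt
GIMAP6 (chr7:150632336-150632635, minus strand): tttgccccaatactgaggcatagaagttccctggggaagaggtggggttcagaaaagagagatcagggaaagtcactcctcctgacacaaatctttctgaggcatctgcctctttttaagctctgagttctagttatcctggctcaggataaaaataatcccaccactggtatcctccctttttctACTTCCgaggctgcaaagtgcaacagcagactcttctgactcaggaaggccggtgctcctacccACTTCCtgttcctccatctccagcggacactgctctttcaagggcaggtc
GIMAP2 (chr7:150685456-150685755, plus strand): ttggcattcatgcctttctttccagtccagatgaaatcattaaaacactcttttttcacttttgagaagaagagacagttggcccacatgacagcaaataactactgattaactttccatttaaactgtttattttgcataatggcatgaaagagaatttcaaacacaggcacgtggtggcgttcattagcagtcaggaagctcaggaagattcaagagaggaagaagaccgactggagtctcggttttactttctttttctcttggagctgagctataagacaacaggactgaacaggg

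The letters GGAAGT or their reverse complement stood in the windows of *GIMAP8*, *GIMAP4* and *GIMAP6*. In *GIMAP8* the match began 44 bases before the start, in *GIMAP4* 37 bases before it, and in *GIMAP6* there was 1 match 64 bases before the start and 1 at the start itself. *GIMAP5* held 2 matches, and the windows of *GIMAP1*, *GIMAP2* and *GIMAP7* held none. Of all 35116 windows in the RefSeq table, 22.8% held this motif. Neither SOX motif was found in any of the 7 windows, against 16.1% of all windows for ACAAAG and 10.8% for ACAATG, and the RUNX motif, present in 13.1% of all windows, was not found either. TGGGAA, found in 24% of all windows, stood in those of *GIMAP1* and *GIMAP5*, and TATAAA, found in 11.5%, in that of *GIMAP7*, 173 bases before its start. *GIMAP1* and the read-through gene have the same window. The windows had between 3 CG pairs, in *GIMAP4* and *GIMAP6*, and 8, in *GIMAP8*, where the median of all windows was 14. Such numbers are common: 24.5% of all windows had as few as *GIMAP4* and *GIMAP6*, and 41.6% as few as *GIMAP8*. These matches describe the letters of the windows, and the absence of a motif there says nothing about binding of the factor.

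Per length, the most abundant member in every line was *GIMAP2*, a protein of the lipid droplet surface. Its level in the control siRNA samples was 39.5, 35.6 and 35.8 CPM in REH, 17.4, 19.5 and 18.8 CPM in 697, and 27.9, 29.2 and 27.6 CPM in RCH-ACV. The 3 lines did not overlap, with REH highest and 697 lowest. By edgeR's quasi-likelihood test, Benjamini-Hochberg adjusted over all genes, the log2 fold change was 0.99 ± 0.09 (SE) for REH over 697 (adjusted p = 5.65e-09), 0.38 ± 0.08 for REH over RCH-ACV (adjusted p = 2.90e-04) and -0.61 ± 0.09 for 697 over RCH-ACV (adjusted p = 1.16e-05). All 3 differences are to be read against how often the lines differ at all. In the same fit 76.2% of the tested genes were called between REH and 697, 73.7% between REH and RCH-ACV, and 64.2% between 697 and RCH-ACV.

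**Figure D1:**
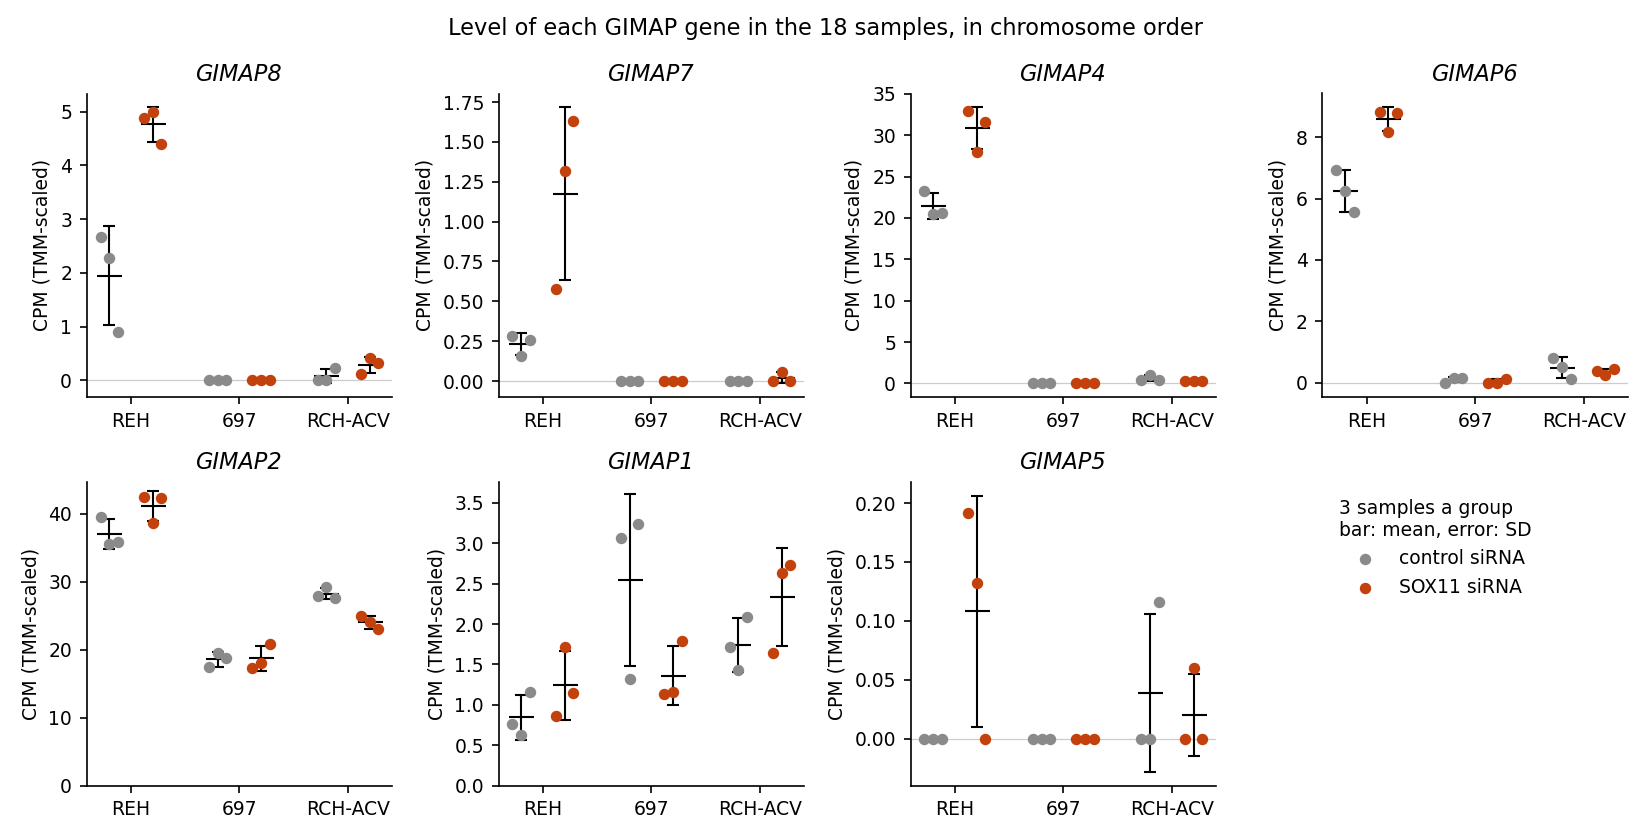
Level in CPM on TMM-scaled library sizes of each GIMAP gene in the 18 samples, 1 panel for each gene in chromosome order with its own scale, with points for samples, bars for the mean of 3 samples and error bars for the SD. GIMAP8, GIMAP7, GIMAP4 and GIMAP6 are at or near 0 outside REH, GIMAP2 is present in all lines, and GIMAP5 does not pass 0.192 CPM in any sample.

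*GIMAP4*, *GIMAP6* and *GIMAP8* differed between the lines by much more than *GIMAP2*. *GIMAP4*, a member linked to the pace of T-cell death, had 245, 263 and 159 counts in the REH controls, 23.3, 20.5 and 20.6 CPM. In RCH-ACV the control counts were 4, 8 and 3, and in 697 *GIMAP4* was at 0 counts in all 6 samples. Each REH control sample thus lay far above every sample of the other lines. With counts summed over each group and divided by the summed library sizes, as for all ratios and lower bounds given here, which can therefore differ from the ratio of the mean levels, the REH controls were at least 160-fold higher than those of 697, taking 3 counts over the 697 group as its limit. The ratio to RCH-ACV was 35.9 with a 95% counting interval of 21.6 to 64.5. In edgeR's fit of the controls, the log2 fold change of REH over RCH-ACV was 5.12 ± 0.23 (SE). *GIMAP4* passed the filter of this fit through its level in REH, so its calls between lines are not used as tests. Its counts, levels and ratios are given as a description. The call between 697 and RCH-ACV also rests on 0 against 15 control counts, and nothing is read from it. The RCH-ACV controls were at least 4.46-fold higher than those of 697.

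*GIMAP6*, a partner of the autophagy protein *GABARAPL2*, had the same order of lines. Its control counts were 73, 80 and 43 in REH, 7, 4 and 1 in RCH-ACV, and 0, 1 and 1 in 697. The control level was 6.25 ± 0.685 CPM (SD, n = 3) in REH, 0.478 ± 0.342 CPM in RCH-ACV and 0.094 ± 0.0816 CPM in 697. REH stood apart, whereas RCH-ACV and 697 shared the count of 1. In edgeR's fit of the controls, the log2 fold change of REH over RCH-ACV was 3.67 ± 0.32 (SE). The ratio of REH to 697 was 70.5 with a counting interval of 19.3 to 587. *GIMAP6* passed the filter of the comparison of the lines through its level in REH, so its calls between lines are described and not used as tests. Between 697 and RCH-ACV, with 2 against 12 control counts, the ratio was 0.187 with a counting interval of 0.0203 to 0.84. That difference was called with edgeR's quasi-likelihood test (Benjamini-Hochberg adjusted p = 0.0353), and its call was lost with DESeq2 and when any 1 of 4 control samples was left out (replicates 1 and 3 of 697, replicates 1 and 2 of RCH-ACV), with adjusted p between 0.0519 and 0.187.

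*GIMAP8* had 28, 29 and 7 counts in the REH controls, 2.66, 2.27 and 0.906 CPM. It had 0 counts in all 6 samples of 697. In RCH-ACV the control counts were 0, 0 and 2. *GIMAP8* was therefore detected in the controls of REH, and its 2 counts in the RCH-ACV controls are under the 3 taken to show a gene. Against 697 the REH controls were at least 15.4-fold higher, and against RCH-ACV the ratio was 25.8 with a counting interval of 6.87 to 218.

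*GIMAP7*, which is able to stimulate the GTPase activity of *GIMAP2*, and *GIMAP5* were close to the limit of detection. *GIMAP7* had 3, 2 and 2 counts in the REH controls and 0 in every control sample of the other lines. *GIMAP5*, the member whose loss costs lymphocytes, had 0 counts in all controls of REH and 697 and a single count in those of RCH-ACV. A group of 3 samples at 0 counts allows up to 3 counts, which is 0.0966 CPM for the REH controls, 0.134 CPM for the 697 controls and 0.12 CPM for the RCH-ACV controls. No presence of *GIMAP5* above these limits was detectable in the REH and 697 controls at this depth. Its single count in the RCH-ACV controls is under the 3 taken to show a gene. *GIMAP5*, *GIMAP7* and *GIMAP8* had too few counts for the filter on low counts in the comparison of the lines and were not tested there. Of the 4 members that passed, *GIMAP4* and *GIMAP6* did so through their level in REH, so the number that passed is no measure of the family.

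*GIMAP1*, known from mice as needed for mature B and T cells, had the opposite order. Its control counts were 25, 9 and 24 in 697, 15, 11 and 18 in RCH-ACV, and 8, 8 and 9 in REH. The level was 0.85 ± 0.281 CPM (SD, n = 3) in REH, 2.54 ± 1.06 CPM in 697 and 1.74 ± 0.335 CPM in RCH-ACV. REH was lowest and its samples did not overlap with those of the other lines, which overlapped with each other. The log2 fold change was -1.67 ± 0.36 (SE) for REH over 697 (edgeR's quasi-likelihood test, Benjamini-Hochberg adjusted p = 3.59e-04), -1.12 ± 0.38 for REH over RCH-ACV (adjusted p = 0.0138) and 0.56 ± 0.32 for 697 over RCH-ACV (adjusted p = 0.135).

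These values of *GIMAP1* rest on few counts and moved with single samples. Without the second 697 control sample, the difference between 697 and RCH-ACV became 0.84 on the log2 scale (edgeR's quasi-likelihood test, Benjamini-Hochberg adjusted p = 0.0179). The call of REH against RCH-ACV was lost without the second REH control (adjusted p = 0.0735), without the third RCH-ACV control (adjusted p = 0.0623) and with DESeq2 (adjusted p = 0.0605). Among the *SOX11* siRNA samples the log2 fold change of REH over 697 was -0.20 (edgeR's quasi-likelihood test, Benjamini-Hochberg adjusted p = 0.631), and that of 697 over RCH-ACV turned to -0.80 (adjusted p = 0.0251). The read-through gene *GIMAP1-GIMAP5* had between 0 and 14 counts per sample and shares reads with *GIMAP1*.

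Per length, the family was made up differently in REH than in the other lines. The summed level of the 7 genes was 39.3 ± 2.66 CPM per kb (SD, n = 3) in the REH controls, 13.5 ± 0.606 in the 697 controls and 20.5 ± 0.707 in the RCH-ACV controls. *GIMAP2* made up 65.2% ± 0.631 (SD, n = 3) of this sum in the REH controls, and the same gene made up 95.4% ± 1.79 of the 697 sum and 95.6% ± 0.355 of the RCH-ACV sum. *GIMAP4* made up 28% ± 0.164 of it in REH. Within the REH controls the order of levels per length was *GIMAP2* at 25.6 ± 1.52 CPM per kb, *GIMAP4* at 11 ± 0.805, *GIMAP6* at 1.82 ± 0.199 and *GIMAP8* at 0.464 ± 0.22, followed by *GIMAP1* at 0.195 ± 0.0643 and *GIMAP7* at 0.192 ± 0.056, which were within each other's spread. The makeup in REH was thus that of *GIMAP2* and *GIMAP4* together, and in the other lines that of *GIMAP2* nearly alone.

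**Figure D2:**
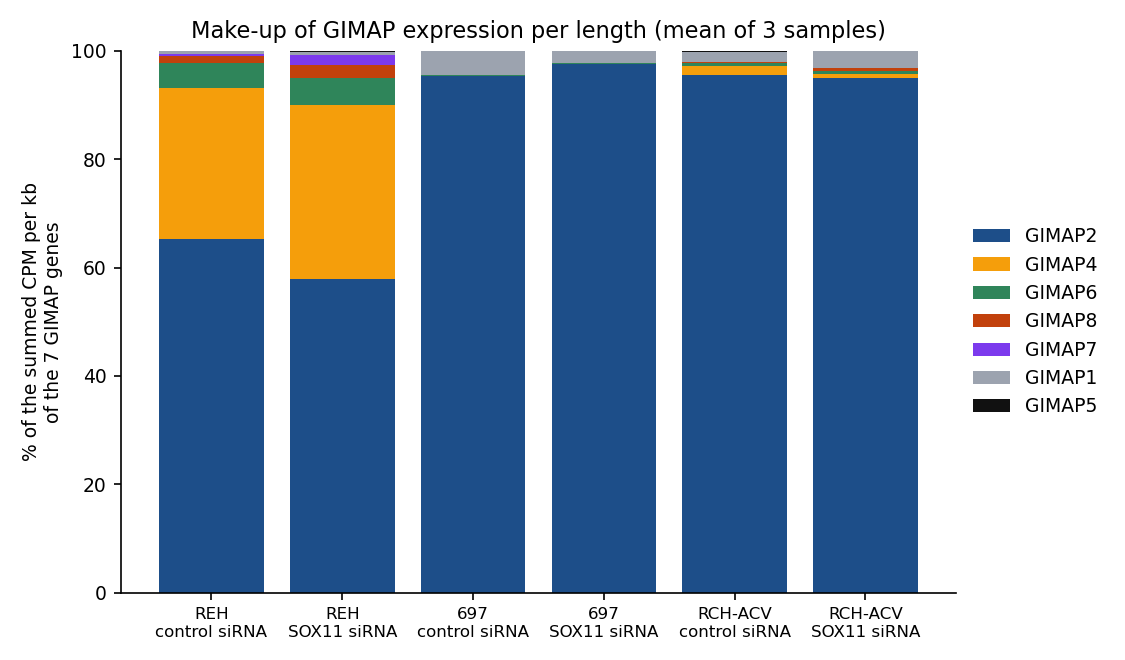
Share of each GIMAP gene, in % and as the mean of 3 samples, in the summed CPM per kb of the 7 genes, 1 stacked bar for each line and siRNA. GIMAP2 takes 65.2% of the REH control bar and GIMAP4 28%, while GIMAP2 takes 95.4% of the 697 control bar and 95.6% of the RCH-ACV control bar.

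In REH, where the selection was made, the level of *GIMAP8* was 4.89, 5 and 4.4 CPM with *SOX11* siRNA against 2.66, 2.27 and 0.906 CPM with control siRNA. All 3 *SOX11* siRNA samples were above all controls, and the third control sample was the lowest of the 6. The log2 fold change was 1.21 ± 0.24 (SE), and it lay between 0.96 and 1.44 when each sample was left out in turn, lowest without the third control. In counts, *GIMAP8* went from 28, 29 and 7 to 51, 38 and 46. This rise is what the family was chosen by, and it is given as a description.

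The other members that were well counted in REH also had higher means with *SOX11* siRNA. *GIMAP4* was at 32.9, 28 and 31.6 CPM with *SOX11* siRNA and at 23.3, 20.5 and 20.6 CPM with control siRNA, a log2 fold change of 0.54 ± 0.08 (SE). *GIMAP6* was at 8.83, 8.16 and 8.8 CPM with *SOX11* siRNA and at 6.93, 6.25 and 5.56 CPM with control siRNA, a log2 fold change of 0.46 ± 0.14 (SE). For both genes the 2 groups did not overlap. *GIMAP7* had 6, 10 and 17 counts with *SOX11* siRNA and 3, 2 and 2 with control siRNA. The ratio of the summed *GIMAP7* counts, scaled by library size, was 5.14 with a counting interval of 2.24 to 13.8, which covers counting error and not the spread between samples, and the *GIMAP7* counts were too low for the fit.

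*GIMAP2* and *GIMAP1* overlapped between the groups in REH. *GIMAP2* was at 42.5, 38.6 and 42.3 CPM with *SOX11* siRNA and at 39.5, 35.6 and 35.8 CPM with control siRNA, a log2 fold change of 0.16 ± 0.07 (SE). *GIMAP1* was at 0.863, 1.71 and 1.15 CPM with *SOX11* siRNA and at 0.76, 0.625 and 1.16 CPM with control siRNA, a log2 fold change of 0.57 ± 0.38 (SE). *GIMAP5* had 2, 1 and 0 counts with *SOX11* siRNA and none with control siRNA, so no fold is given.

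Of the 7 members, 5 passed the filter in REH. Over all genes tested in REH, 4.65% were called with edgeR's quasi-likelihood test, 2.64% in the higher direction. The groups did not overlap for *GIMAP4*, *GIMAP6*, *GIMAP7* and *GIMAP8*, and over all genes tested in REH 10.1% had all *SOX11* siRNA samples above all controls. Since the family was selected on this contrast, nothing is read from these counts. The summed level of the 7 genes per length was 49.3 ± 2.62 CPM per kb (SD, n = 3) with *SOX11* siRNA and 39.3 ± 2.66 with control siRNA, and the share of *GIMAP2* in it was 57.8% ± 0.072 and 65.2% ± 0.631, respectively.

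**Figure D3:**
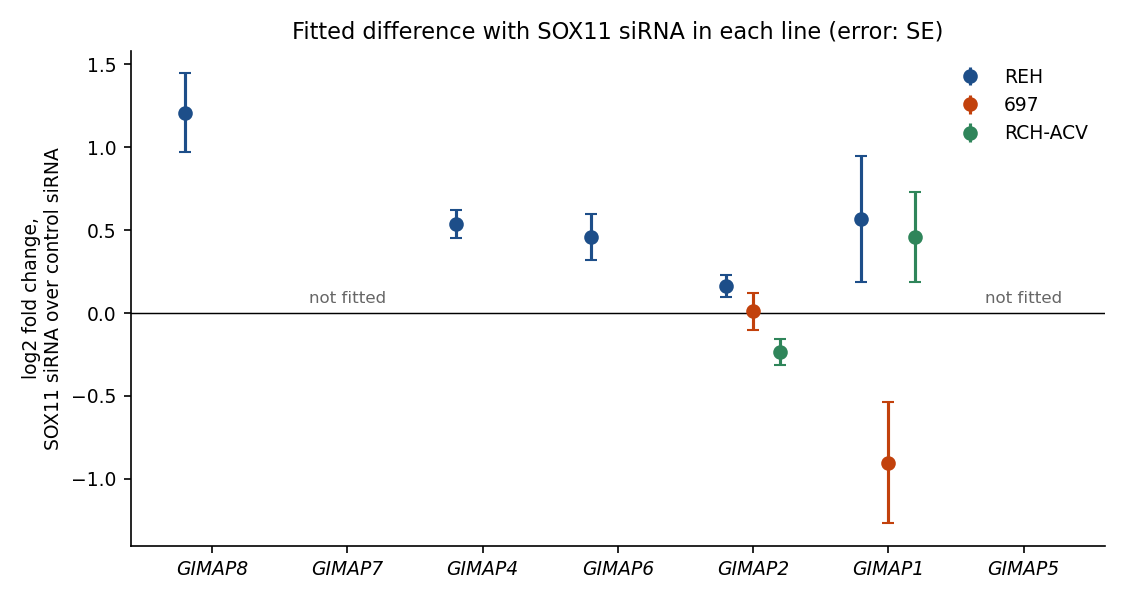
Log2 fold change of SOX11 siRNA over control siRNA for each GIMAP gene in each line, in chromosome order, with error bars for the SE of the fit. In REH, where the family was selected, the fitted values run from 0.16 for GIMAP2 to 1.21 for GIMAP8 and are a description. In 697 and RCH-ACV the fit covered GIMAP2 and GIMAP1, and GIMAP7 and GIMAP5 were fitted in no line.

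The 697 and RCH-ACV contrasts were not used in the selection and were tested, although earlier results of these data were known when the members were chosen. In both lines 2 of the 7 members, *GIMAP1* and *GIMAP2*, passed the filter on low counts, and 0 were called with edgeR's quasi-likelihood test. DESeq2 called 0 as well and gave no adjusted p for 1 of the 2 in RCH-ACV. An unadjusted p under 0.05 was reached by 1 of the 2 in each line. Over all genes tested, 0.559% were called in 697 and 7.51% in RCH-ACV.

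In 697, *GIMAP2* was at 17.3, 18.1 and 20.8 CPM with *SOX11* siRNA and at 17.4, 19.5 and 18.8 CPM with control siRNA. The groups overlapped, and the log2 fold change was 0.01 ± 0.11 (SE) with an adjusted p of 0.995 in edgeR's quasi-likelihood test (Benjamini-Hochberg). *GIMAP1* was at 1.14, 1.16 and 1.79 CPM with *SOX11* siRNA and at 3.07, 1.32 and 3.24 CPM with control siRNA, so that the second control sample lay among the *SOX11* siRNA samples. Its log2 fold change was -0.90 ± 0.37 (SE), with an unadjusted p of 0.0317 and a Benjamini-Hochberg adjusted p of 0.532 in edgeR's quasi-likelihood test. *GIMAP4*, *GIMAP5*, *GIMAP7* and *GIMAP8* had 0 counts in all 6 samples of 697, and *GIMAP6* had 1 count with *SOX11* siRNA and 2 with control siRNA. A rise of the kind seen for *GIMAP8* in REH would have had to bring these genes past 3 counts in a group, 0.118 CPM with *SOX11* siRNA, to be detectable.

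In RCH-ACV, *GIMAP2* was at 24.9, 24 and 23.1 CPM with *SOX11* siRNA and at 27.9, 29.2 and 27.6 CPM with control siRNA. Here all *SOX11* siRNA samples were below all controls. The share of all tested genes with this order in RCH-ACV is not given, so nothing is read from it. The log2 fold change was -0.23 ± 0.08 (SE), with an unadjusted p of 0.00884 and a Benjamini-Hochberg adjusted p of 0.0829 in edgeR's quasi-likelihood test, which missed the threshold. Over 15 alternative settings the adjusted p ranged from 0.0704 to 0.337, and the sign was negative in all 15. *GIMAP1* was at 1.64, 2.63 and 2.73 CPM with *SOX11* siRNA and at 1.71, 1.43 and 2.09 CPM with control siRNA, a log2 fold change of 0.46 ± 0.27 (SE) with a Benjamini-Hochberg adjusted p of 0.336 in edgeR's quasi-likelihood test.

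The remaining members had few counts in RCH-ACV. *GIMAP4* had 2, 5 and 3 counts with *SOX11* siRNA and 4, 8 and 3 with control siRNA, and the ratio of the summed counts, scaled by library size, was 0.494 with a counting interval of 0.199 to 1.18. *GIMAP8* had 1, 7 and 3 counts with *SOX11* siRNA and 0, 0 and 2 with control siRNA, a ratio of 4.08 with a counting interval of 0.89 to 37.9. Both intervals include 1, so no difference was detectable for these genes at this depth. *GIMAP6* had 3, 4 and 4 counts against 7, 4 and 1, *GIMAP7* had 1 count over the 6 samples together, and *GIMAP5* had 1 count in each group. The *SOX11* siRNA sample with 7 counts of *GIMAP8* was also the deepest of the 18, with a total of 16592492.

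The difference between the effects of the siRNA in RCH-ACV and 697 was tested directly as an interaction. It was 1.35 ± 0.46 (SE) on the log2 scale for *GIMAP1*, with an unadjusted p of 0.00875 and a Benjamini-Hochberg adjusted p of 0.628 in edgeR's quasi-likelihood test. For *GIMAP2* it was -0.26 ± 0.13 (SE) with an adjusted p of 0.845 in the same test. Of the 2 tested members 0 were called with edgeR, 1 had an unadjusted p under 0.05, and DESeq2 gave no adjusted p for either. Over all genes tested, 0.0522% were called. A different effect of the siRNA on GIMAP genes in these 2 lines was therefore not shown.

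The genes around the cluster were counted to see whether the pattern of the family extended beyond it. Within 500 kb of the outermost members, 27 further genes were in the tables, the read-through *GIMAP1-GIMAP5* among them, and 16 had a mean of at least 1 CPM over the 18 samples. The closest of these were *ZNF775* and *REPIN1* on the *GIMAP8* side, 52000 and 76585 bases away, and *KCNH2* on the *GIMAP5* side, 194928 bases away. In between, *LINC00996* next to *GIMAP8* did not pass a mean of 0.164 CPM in any group, and *TMEM176B* and *TMEM176A* beyond *GIMAP5* did not pass 0.0767 CPM. The cluster was thus flanked on both sides by genes with few or no reads in all 3 lines.

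No neighbour was called with *SOX11* siRNA in any line. With edgeR's quasi-likelihood test 0 of 14 tested neighbours were called in REH, and 0 of 16 in either of the other lines. DESeq2 called 0 of them too. An unadjusted p under 0.05 was reached by 1 neighbour in REH, by 0 in 697 and by 3 in RCH-ACV. The median log2 fold change of the tested neighbours was -0.09 for REH, -0.06 for 697 and 0.10 for RCH-ACV. Between the control samples of REH and 697, 9 of 16 tested neighbours were called, 2 higher and 7 lower in REH, beside 76.2% of all tested genes. Between REH and RCH-ACV 10 of 16 were called, 2 higher and 8 lower in REH, beside 73.7% of all genes, and between 697 and RCH-ACV 7 of 16, beside 64.2%. Neighbours were thus not called more often than genes in general. *KCNH2*, a potassium channel gene, was lower in REH than in 697 by a log2 fold change of -4.54 ± 0.45 (SE), *AGAP3* by -2.08 ± 0.10 and *SMARCD3*, a chromatin remodelling subunit, by -2.58 ± 0.22. For REH over RCH-ACV the values were -4.91 for *KCNH2*, -1.48 for *SMARCD3* and -0.13 for *AGAP3*, the last without a call. *AGAP3* was higher in 697 than in RCH-ACV, by 1.94. Among the called neighbours, the largest positive value of REH over 697 was that of *CHPF2*, 0.63 ± 0.12, and of REH over RCH-ACV that of *CDK5*, 0.53 ± 0.11. Differences of the size of those of *GIMAP4* and *GIMAP6* in the direction of REH were not seen among them. The other called neighbours in 1 or more of these comparisons were *REPIN1*, *NOS3*, *ATG9B*, *ABCB8*, *SLC4A2*, *ABCF2* and the read-through *ABCF2-H2BK1*, and *ZNF775*, *ASIC3*, *FASTK* and *TMUB1* were expressed and not called.

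**Figure D4:**
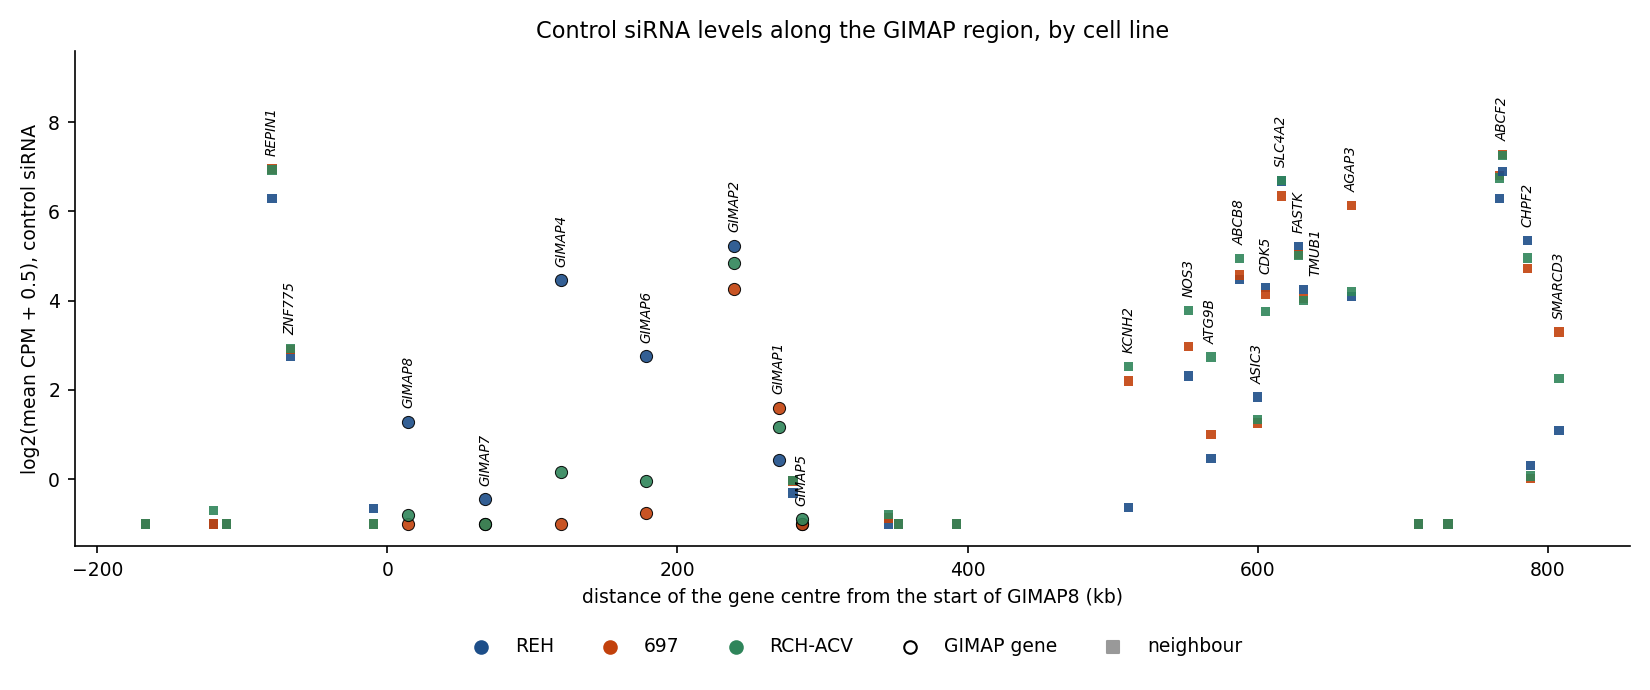
Mean level in the control siRNA samples, as log2(CPM + 0.5), of the GIMAP genes (circles) and their neighbours (squares) against the distance in kb of the gene's centre from the start of GIMAP8, coloured by line, with names for members and most neighbours at 1 CPM or more. A value of -1 stands for 0 CPM, and REH lies above the other lines for GIMAP8, GIMAP4, GIMAP6 and GIMAP2 and below them for GIMAP1 and KCNH2.

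Lists of genes that mark other cells or belong to the biology of the family were counted beside it. These lists were chosen with earlier results of these data known, which limits what their tests can show. Over all tested genes, 4.65% were called in REH, 0.559% in 697 and 7.51% in RCH-ACV. T cells and endothelium are cells in which GIMAP genes are known to be active. Of 20 T-cell and NK-cell markers, 3 to 6 reached a mean of 1 CPM in a group, and the defining CD3 chains were at or near 0: *CD3D* had 0 counts in all 18 samples, *CD3E* had 3 counts in the REH samples, and *CD3G* 0. The summed level of the list ranged from 21.5 to 22.9 CPM in the REH controls and from 24 to 26.9 CPM with *SOX11* siRNA, and it was carried by *LCK*, *ZAP70* and *CD247*. This sum moved in the direction of *GIMAP4*, *GIMAP6*, *GIMAP7* and *GIMAP8* in REH. With edgeR's quasi-likelihood test 0 of the 4 tested list genes were called there, 1 had an unadjusted p under 0.05, and DESeq2 called 0. The list's part in the GIMAP values was not tested. In 697 0 of 4 tested list genes were called with edgeR or DESeq2, 1 with an unadjusted p under 0.05, and in RCH-ACV 2 of 6 rose, *ZAP70* by 0.69 and *LCK* by 0.43 on the log2 scale, with the sum at 116 to 141 CPM with *SOX11* siRNA. The median log2 fold change of the list was 0.10 for REH, 0.20 for 697 and -0.15 for RCH-ACV, where its sign is opposite to that of the 2 called genes. Between lines the sum ran opposite to *GIMAP4*, *GIMAP6* and *GIMAP8*, with 77.4 to 86.8 CPM in the 697 controls and 95.6 to 99.3 CPM in the RCH-ACV controls.

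Of 12 endothelial markers, *CDH5* had 0 counts in REH and *VWF* 3 counts over the 6 REH samples. The summed level of this list was 64.1 to 80.5 CPM in the REH controls and 58.5 to 66.1 CPM with *SOX11* siRNA, mostly *EGFL7*. Of 4 tested in REH, 1 fell, and 0 rose: *TIE1*, an endothelial receptor tyrosine kinase, fell by 0.75 on the log2 scale in REH (edgeR's quasi-likelihood test, Benjamini-Hochberg adjusted p = 0.00452). In 697 and RCH-ACV, *CLEC14A*, a surface lectin of endothelial cells, fell by 1.21 and 0.81. In RCH-ACV *ESAM* also fell, by 0.33, and *PECAM1* rose by 0.88, so that 2 of 5 tested fell and 1 rose, while in 697 *CLEC14A* was the 1 called of 3 tested. The list's median log2 fold change was -0.15 for REH, -0.07 for 697 and -0.33 for RCH-ACV. The 12 myeloid markers summed to 21.8 to 25.2 CPM in the REH controls and 15 to 18 CPM with *SOX11* siRNA, and *MPO*, myeloperoxidase, fell by 0.78 in REH (edgeR's quasi-likelihood test, Benjamini-Hochberg adjusted p = 2.37e-04). *MPO* was the 1 called of 3 tested, with a list median of -0.25, and in 697 and RCH-ACV, where *CSF1R* was the marker tested, 0 of 1 were called with edgeR or DESeq2, 0 with an unadjusted p under 0.05, at 0.47 and -0.07. Neither sum went up with the GIMAP genes in REH. Within the endothelial list in REH, *EGFL7* and *TIE1* had lower means with *SOX11* siRNA, and *PECAM1* had a higher one, 2.08 against 1.52 CPM, without a call. Of the 4 endothelial genes tested there, 2 had an unadjusted p under 0.05 in edgeR's quasi-likelihood test. The part of these lists in the GIMAP values was not tested.

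The summed level of 12 B-precursor markers lay between 4931 and 9029 CPM over all samples, and 4 of 11 tested rose and 1 fell in REH. Over all tested genes, 2.64% rose in REH, and 4.65% were called there, 0.559% in 697 and 7.51% in RCH-ACV. *MME* (CD10) rose by 0.36 on the log2 scale, *RAG1* by 0.20, *CD24* by 0.13 and *CD79A* by 0.13, and *EBF1*, named here as the 1 gene that fell, changed by -0.13. In 697, 0 of 12 rose and 3 fell, namely *RAG1* by 0.41, *EBF1* by 0.34 and *DNTT* by 0.27. In RCH-ACV 3 of 12 rose and 2 fell, with *MME* up by 0.56 and *CD79A* by 0.46, and *DNTT* down by 0.37 and *CD24* by 0.23. The list's median log2 fold change was 0.08 for REH, -0.09 for 697 and 0.02 for RCH-ACV, beside 0.00 for all tested genes of each line.

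The lymphocyte quiescence and homing genes include several that are active with the GIMAP genes in resting lymphocytes. In REH 4 of 13 tested genes rose and 0 fell, among them *BTG2*, an anti-proliferative factor, by 0.27 on the log2 scale, the transcription factor *BACH2* by 0.24 and *FOXO1* by 0.14. Of all genes tested in REH, 2.64% rose. The list's median was 0.00 for REH, beside 0.00 for all tested genes, and -0.08 for 697 and -0.09 for RCH-ACV. In 697 0 of 15 rose and *IL7R*, the interleukin 7 receptor chain, fell by 0.22. In RCH-ACV *BTG2* rose by 0.40, *BTG1* fell by 0.34 and *IL7R* fell by 0.17, of 15 tested. The 4 genes that rose in REH were not accompanied by a shift of the list's median.

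Of 16 genes reported as protein partners or linked pathways of the GIMAP proteins, among them *BCL2*, *BCL2L11*, *GABARAPL2* and *MAP1LC3B*, 0 were called in any line with edgeR's quasi-likelihood test, of 14 tested for 697 and 16 tested for each of the other lines. An unadjusted p under 0.05 was reached by 1 of them for 697, 2 for REH and 3 for RCH-ACV, and DESeq2 called 0. The median log2 fold change of these genes was 0.00 for REH, -0.05 for 697 and -0.03 for RCH-ACV. Of 16 other immunity-associated GTPases, 11 were tested in REH, where *RAC2*, a small GTPase of blood cells, rose by 0.35 on the log2 scale and *IRGQ* fell by 0.24. In RCH-ACV *RAC2* rose by 0.46 as 1 of 11 tested, and in 697 0 of 10 were called with edgeR or DESeq2, with 2 at an unadjusted p under 0.05. These GTPases had a median log2 fold change of 0.04 for REH, 0.04 for 697 and 0.03 for RCH-ACV. *RAC2* was the one GTPase of this list that rose in 2 lines.

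The list genes named as changed passed the threshold of edgeR's quasi-likelihood test, and several of these calls depended on single samples or settings. In REH, *MME*, *RAC2*, *TIE1* and *MPO* kept their call under all 15 alternatives. The call of *FOXO1* was lost under 10 of 15, that of *CD79A* under 6, *IRGQ* under 6 and *BTG2* under 5. That of *CD24* was lost under 2, and those of *RAG1* and *BACH2* under 1 each. In 697 *CLEC14A* kept its call under all alternatives, while those of *IL7R*, *DNTT*, *EBF1* and *RAG1* were lost under 4 to 7. In RCH-ACV 9 of 13 named genes kept their call, and *ESAM*, *LCK*, *DNTT* and *MME* did not. None of these genes changed direction under the alternatives, which were not run for *EBF1* in REH.

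For the 5 members with a mean of at least 1 CPM, the genes with the most similar pattern over the 18 samples were found by the root mean square difference of gene-centred log2(CPM + 0.5) among 13344 genes. For *GIMAP4* these were *TET1*, a methylcytosine dioxygenase, at 0.323, *TRO* at 0.347 and *HLA-DQB2* at 0.359, and *GIMAP6* was at rank 130. *TET1* had 28 CPM in the REH controls, 0.045 CPM in the 697 controls and 0.555 CPM in the RCH-ACV controls. For *GIMAP6* the nearest genes were *MIR3667HG* at 0.26, *SP4* at 0.289 and *ABHD3* at 0.32, with *GIMAP8* at rank 168. For *GIMAP8* they were *OPRL1* at 0.402, *TIGD7* and *LINC01720* both at 0.415, with *GIMAP6* at rank 165. Also for *GIMAP8*, *GIMAP4* was at rank 6736, behind *GIMAP2* at rank 1124, whereas *GIMAP8* was at rank 322 for *GIMAP4*. *GIMAP1* was at rank 10669 for *GIMAP4*, 10560 for *GIMAP6* and 10221 for *GIMAP8*. The measure includes the REH samples with *SOX11* siRNA, on which the family was selected, and *GIMAP4*, *GIMAP6* and *GIMAP8* reached the mean of 1 CPM through REH, so the ranks are a description and support no grouping of the members.

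*GIMAP2* and *GIMAP1* had other nearest genes. *GIMAP2* was most similar to *PSMA6*, a proteasome subunit, at 0.105, followed by *GNL1* at 0.109 and *GTF3C5* at 0.11, genes that were expressed in all lines with REH highest. *GIMAP1* was most similar to *PLCB1* at 0.33, *NOTCH2NLA* at 0.34 and *IL17RE* at 0.344, which were lowest in REH. No p is given for these ranks, since the values share the same 18 libraries and the large differences between the 3 lines.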

How the data were processed

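RNA sequencing counts of 18 samples were used, 3 for each siRNA and line. The authors trimmed reads with the FASTX Toolkit after FastQC 0.10.1, mapped them to hg19 (STAR 2.5.3a) and counted RefSeq transcripts (HOMER); whether strand was used is not given in the sources used here. The authors deposited raw counts, 1 table a line. The methods call the replicates independent biological ones. The labels name no separate cultures, and p-values measure the spread between these samples.

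Transcripts were matched to symbols (98.0% of transcripts, 99.0% of counts), and each gene was represented by its transcript with the largest sum of counts. Each line was fitted with edgeR 4.0.16 in R 4.3.3 (TMM, filterByExpr, quasi-likelihood F-test, two-sided, without a replicate block, Benjamini-Hochberg threshold 0.05). The interaction was fitted on 12 samples and the lines were compared on 9 controls. Fits were tested on simulated data. CPM used TMM-scaled totals. Exon lengths of MANE Select transcripts and hg19 positions, also for the neighbours within 500 kb, came from GENCODE, since the tables hold no positions, and promoter windows from RefSeq. Counting intervals (95%, exact) and floors of 3 counts cover counting error only.

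Named were all 7 members, the read-through gene, neighbours that were called or had a mean of 1 CPM, the 3 genes most like each member with that mean, and up to 4 called genes of each list by absolute log2 fold change. Members and lists were chosen with earlier results of these data known. A few items are not reported here. The alternatives comprised DESeq2 1.42.0, RLE size factors, unscaled library sizes, other filters, a replicate block, other transcripts, 1 fit over 18 samples, *SOX11* siRNA samples for the lines, and leaving out each sample. Tables were made in Python 3.11.15 with pandas 2.3.3, scipy 1.17.1 and numpy 2.4.6, and plots with matplotlib 3.10.9.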

Additional observations from a re-analysis of the deposited data

Results flagged for a closer look

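The *GIMAP4* levels of the siRNA groups lay in opposite order in 2 lines, which was not tested in RCH-ACV because of low counts. In REH its mean level was 30.8 CPM with *SOX11* siRNA and 21.5 CPM with control siRNA, and all 3 *SOX11* siRNA samples were above all controls. Over all genes tested in REH, 10.1% had this order of samples. In RCH-ACV the mean level of *GIMAP4* was 0.293 CPM with *SOX11* siRNA and 0.614 CPM with control siRNA, and all 3 *SOX11* siRNA samples were below all controls. The closest samples of the 2 groups, at 0.327 and 0.349 CPM, had 3 counts each and differed by library size alone. No share of all genes with this order is given for RCH-ACV. The RCH-ACV values rest on 10 counts with *SOX11* siRNA and 15 with control siRNA, where the counting interval of the ratio, 0.199 to 1.18, includes 1. The difference between the lines was not tested.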

How the results depend on the processing

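In 697, in RCH-ACV and in the interaction, 0 members were called under every alternative run, also with each sample left out; DESeq2 gave no adjusted p for 1 member in RCH-ACV and for both in the interaction. The *GIMAP8* log2 fold change in REH lay between 0.96 and 1.44 with each sample left out. Among the *SOX11* siRNA samples, *GIMAP1* changed sign between 697 and RCH-ACV, to -0.80, and 5 members in place of 3 were called. In the control fit of these lines, 4 members had passed the filter and 64.2% of all tested genes were called. The count of 5 therefore also follows which members passed the filter, and nothing is read from it. *GIMAP2* in 697 lay between -0.0631 and 0.0628 with single samples left out, changed sign in 2 of these fits and was called in none. With a sample left out, members called ranged from 2 to 4 between 697 and RCH-ACV, from 4 to 5 between REH and 697 and from 3 to 5 between REH and RCH-ACV. All genes called ranged from 8163 to 8812, from 10007 to 10463 and from 9539 to 10581 in the same comparisons. A count of 5 exceeds the 4 members that passed the filter in the main fit, so these counts also follow the filter.

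Counts of all called genes moved more. With DESeq2 they went from 594 to 317 in REH, from 973 to 570 in RCH-ACV and from 7 to 23 in the interaction. With 1 fit over 18 samples they were 228 in REH and 189 in 697, where the fit of the line alone gave 68. Without the filter on low counts they were 119 in 697 and 49 in the interaction. With a sample left out they ranged from 296 to 522 in REH, 25 to 70 in 697, 386 to 2479 in RCH-ACV and 1 to 24 in the interaction; the 2479 came without the third *SOX11* siRNA sample of RCH-ACV. The cause of these shifts was not tested.

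The replicate numbers did not pair the samples: the correlation of same-numbered deviations lay between -0.0569 and 0.000804 in REH, between -0.244 and 0.264 in 697 and between -0.055 and 0.0163 in RCH-ACV. With the replicate number as a block, 29 genes were called in 697, 470 in REH and 700 in RCH-ACV, and 0 members in 697 and RCH-ACV. The transcript with the highest total in the samples fitted was an alternative chosen after seeing the data and changed none of these counts of members. The longest transcript of each gene was not run, because the tables give no transcript lengths. *GIMAP5*, *GIMAP7* and, outside REH, *GIMAP4*, *GIMAP6* and *GIMAP8* are limited by depth.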
